A study of Mus musculus with 10 samples.

Results

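The response of macrophages to IL4 was described across all genes, as the difference in signal between 2 IL4 arrays and 2 not stimulated arrays. All 22206 probe sets of the array entered the comparison, and 898 of them (4.04%) differed, 369 higher and 529 lower with IL4. Bone-marrow-derived macrophages (BMDMΦs) came from femurs and tibias of male C57Bl/6J mice aged 8 to 12 weeks. Marrow cells were differentiated for 7 days in complete medium, DMEM with 10% serum, to which 25% of medium conditioned by L929 cells was added as the source of the growth factor M-CSF, and more than 94% of the cells were then positive for the macrophage antigen encoded by Adgre1. For the last 48 h the not stimulated BMDMΦs received complete medium (labelled DMEM) and the IL4 BMDMΦs received IL4, at 10 ng per mL according to a legend of the study. The other 6 of the 10 arrays held BMDMΦs kept for the same time with IFNγ or with conditioned medium (CM) of serum-starved cancer-associated fibroblasts (CAFs). These CAFs were wild-type (WT) or knockout (KO) for Snai1, and each condition had 2 arrays.

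The labels give no genotype for the IL4, not stimulated and IFNγ BMDMΦs, and all conditions shared the M-CSF of the differentiation. Nothing in the sources states that the 2 arrays of one condition are from different animals or cultures. The p-values of the main comparison therefore reflect the spread between arrays of the same condition, which may be technical. This spread was pooled over all conditions, not taken from the IL4 and not stimulated arrays alone. In RNA from a whole culture, fewer cells of a type and less RNA per cell cannot be told apart.

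IL4 is a cytokine of T helper 2 cells, mast cells, basophils and eosinophils. It binds the IL4 receptor α chain, which pairs with the common γ chain or with Il13ra1, and the JAK kinases bound to the receptor phosphorylate the transcription factor STAT6. STAT6 dimers bind palindromic DNA and switch on genes of alternative activation, the state of macrophages known from worm infection, wound repair and adipose tissue, while SOCS proteins limit the signal.

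The sequence that STAT6 prefers is TTC, any 4 bases and GAA, which reads the same on both strands. It was looked for in 300 bases around the start of each gene, 250 before and 50 after it, as given by RefSeq for the mouse build GRCm38.p6. The promoters of 4 genes that rose with IL4 are shown because each holds this sequence, in capitals, and because their levels are followed in the results. In Retnla (chr16:48842359-48842658, plus strand) its first base lay at -145 from the start site. In Pdcd1lg2 (chr19:29410669-29410968, plus strand) it lay at -82, and in Itgax (chr7:128129300-128129599, plus strand) at -127. Tmem26 (chr10:68723496-68723795, plus strand) held it at -227 and at -41.
Retnla: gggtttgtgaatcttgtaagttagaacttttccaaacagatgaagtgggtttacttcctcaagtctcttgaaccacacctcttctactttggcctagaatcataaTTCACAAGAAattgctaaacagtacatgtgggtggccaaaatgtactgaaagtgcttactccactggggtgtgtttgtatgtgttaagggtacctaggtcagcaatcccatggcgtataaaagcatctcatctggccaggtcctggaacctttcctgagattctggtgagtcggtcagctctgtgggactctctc
Pdcd1lg2: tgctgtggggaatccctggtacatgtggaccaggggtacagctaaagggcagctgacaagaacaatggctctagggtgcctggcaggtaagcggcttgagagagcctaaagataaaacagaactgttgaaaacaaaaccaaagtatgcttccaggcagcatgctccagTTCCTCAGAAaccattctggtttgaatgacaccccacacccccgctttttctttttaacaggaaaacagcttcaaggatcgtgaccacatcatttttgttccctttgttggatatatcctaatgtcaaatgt
Itgax: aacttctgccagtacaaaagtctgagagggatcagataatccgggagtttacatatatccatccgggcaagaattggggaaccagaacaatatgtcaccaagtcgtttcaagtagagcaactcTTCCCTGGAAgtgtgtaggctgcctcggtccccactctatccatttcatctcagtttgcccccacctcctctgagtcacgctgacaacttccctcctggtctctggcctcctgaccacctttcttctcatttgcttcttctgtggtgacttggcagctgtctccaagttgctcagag
Tmem26: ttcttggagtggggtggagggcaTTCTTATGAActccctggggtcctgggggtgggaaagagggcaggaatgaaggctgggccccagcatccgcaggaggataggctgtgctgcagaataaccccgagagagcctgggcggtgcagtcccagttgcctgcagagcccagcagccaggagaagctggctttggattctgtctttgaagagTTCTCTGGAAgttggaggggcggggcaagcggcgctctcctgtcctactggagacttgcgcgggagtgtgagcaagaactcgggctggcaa

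Few of the genes that rose held the sequence in this window. It was present in 25 of 264 genes with a promoter that were called higher (9.47%), in 26 of 409 called lower (6.36%) and in 1150 of all 15691 (7.33%). Among the 63 genes higher by at least 4-fold, 8 held it (12.7%), and among 137 genes higher with IL4 than in each other condition, 18 did (13.1%). The groups did not have the same number of annotated starts, which was 1.22 per gene over all genes and 1.5 in the last set, so that more sequence was searched per gene there. With 3 instead of 4 bases between TTC and GAA, the shares were 8.71% of the genes called higher, 14.3% of those higher by at least 4-fold, 8.03% of those higher than in each other condition and 9.02% of all. A match describes letters in this window only.

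The signals of all 10 arrays were on 1 scale, with medians between 5.57 and 5.71 on the log2 scale. The replicates correlated across probe sets with r = 0.9948 for not stimulated and 0.9942 for IL4 BMDMΦs, and 6 and 14 probe sets lay more than 4-fold apart between them. Of 28 measured genes of macrophage identity, 6 (21.4%, against 2.38% of all probe sets) were called lower and 0 higher by limma. At an unadjusted p under 0.05, limma gave 10 and 0 and the methods' t-test 8 and 0. This name stands for the Student's t-test of the study's general statistics section. For the arrays themselves the study's methods name the TAC software instead. Their median was -0.21, and 17 had both IL4 arrays below both not stimulated arrays, against 22.7% of all probe sets. Of the macrophage markers, Csf1r, Adgre1 and Spi1 had high signals on all 4 arrays. Csf1r, the receptor of M-CSF, gave 17.23 and 17.27 in not stimulated and 17.15 and 17.14 in IL4 arrays, and Adgre1, an adhesion receptor that marks mouse macrophages, gave 16.28 and 16.43 against 16.08 and 16.24. Spi1, the transcription factor PU.1 that sets up the myeloid program, gave 18.00 and 17.97 against 17.97 and 17.88. None of these 3, chosen after their values were seen, was called. Other macrophage markers were called lower, namely Cd14 (-3.58), Fcgr1 (-1.7), Aif1 (-1.15) and Mertk (-1.04). With 1 array left out, Fcgr1 ranged from -2.13 to -1.26, Aif1 from -1.54 to -0.75 and Mertk from -1.33 to -0.75. Each of these genes lost its call in some of these fits, whereas Cd14 kept it. Aif1 and Mertk were also not called in a limma fit of the 4 arrays alone (adjusted p = 0.069 and 0.055).

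A probe set was called where limma's adjusted p for IL4 minus not stimulated, over all 22206 probe sets, was under 0.05. In the upward direction 1.66% of all probe sets were called and in the downward direction 2.38%. These shares are the background for the list counts that follow. The decreases were more numerous, and the increases reached further. At least 4-fold higher were 97 probe sets and at least 4-fold lower 70, at least 8-fold 47 and 13, at least 16-fold 27 and 2, and at least 64-fold 8 and 0. The median log2 difference was 1.38 for the called increases and -1.25 for the called decreases, against 0.0 over all probe sets. The median signal of the called increases went from 9.22 to 11 with IL4 and that of the called decreases from 10.32 to 8.93. In 70 of the 369 increases the not stimulated mean lay under the median of all probe sets (5.65), and 23 of these increases stayed under it with IL4. All called probe sets had both IL4 arrays on the same side of both not stimulated arrays. They were chosen by p on these same arrays, so this is no separate evidence. The same holds where groups of called genes are said below not to overlap. Of all probe sets, 20.8% had both IL4 arrays above and 22.7% both below.

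**Figure D1:**
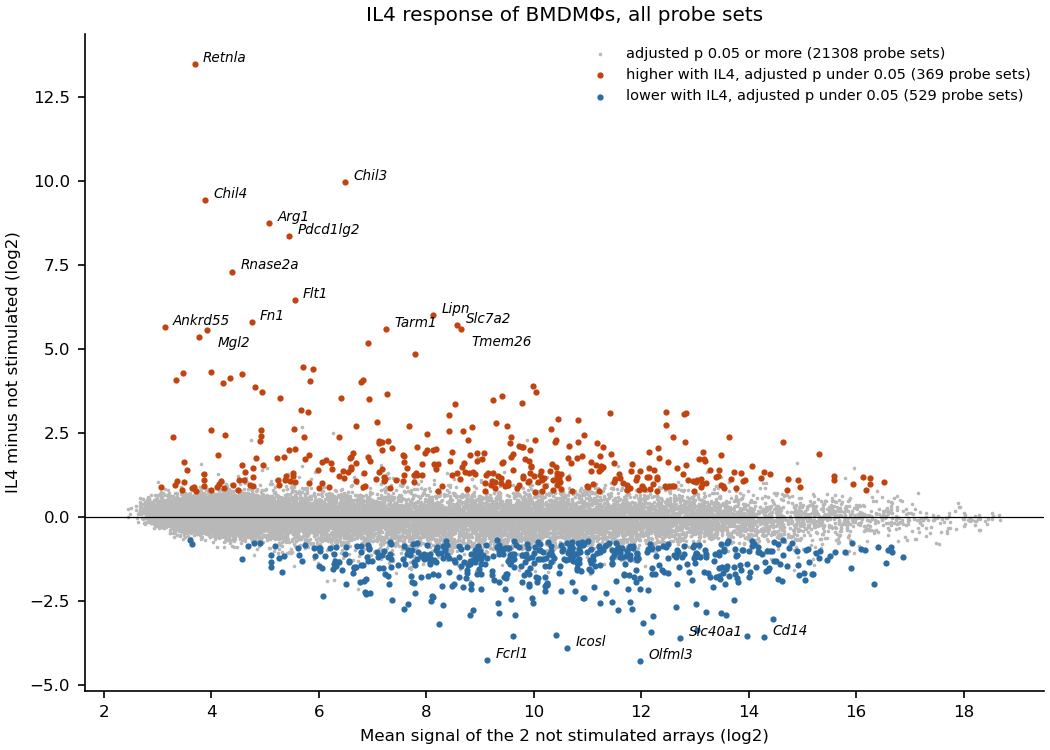
Log2 difference, IL4 minus not stimulated, on the vertical axis against the mean log2 signal of the 2 not stimulated arrays on the horizontal axis. Each of the 22206 probe sets is 1 point, with the 369 called higher and 529 called lower in colour. The increases reach 13.5 on the log2 scale and the decreases -4.30, so the cloud is taller above 0 than below it.

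The number of calls rested on the single arrays. Leaving out 1 of the 4 arrays left 418 calls without not stimulated replicate 1, 471 without not stimulated replicate 2, 467 without IL4 replicate 1 and 535 without IL4 replicate 2. Of the 326 increases with a gene symbol, 124 kept their call without each of the 10 arrays in turn, as did 133 of the 492 decreases. Genes named in the following are among those that kept it unless their paragraph says otherwise.

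The increases were led by secreted proteins and surface molecules of alternative activation. Retnla, a resistin-like protein secreted by alternatively activated macrophages, rose from 3.71 and 3.67 to 17.33 and 17.06, and no other probe set had a larger difference (13.51, SE 0.22, limma, adjusted p = 2.5e-11). Chil3, the chitinase-like lectin Ym1, rose from 5.98 and 6.99 to 16.65 and 16.26 (9.97, SE 0.38). Its neighbour Chil4 (Ym2) rose from 3.83 and 3.94 to 13.58 and 13.06, but these genes are near copies, and whether the probes tell them apart was not tested. The groups were far apart in all 3 genes. The paralogs Retnlb, Retnlg and Chia1 were not called (-0.03, 0.18 and 0.32), and were chosen after their values were seen.

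Arg1, the arginase of the urea cycle, gave 5.17 and 4.99 in not stimulated arrays and 12.92 and 14.77 with IL4. The IL4 replicates thus lay further apart than for Retnla. Arg1 differed by 8.77 (SE 1.21, limma, adjusted p = 0.0016). Its call was lost with intensity-dependent, robust moderation of the variance (adjusted p = 0.061), as was that of Slc7a2, a transporter that brings arginine into the cell (5.71, adjusted p = 0.062). Slc7a2 gave 8.94 and 8.22 against 14.36 and 14.21. The SE pools the spread within all conditions of the 10 arrays, not of IL4 and not stimulated alone. The WT CAF CM arrays gave 5.36 and 10.79 for Arg1 and 10.97 and 14.66 for Slc7a2. Their part in the SE and in the lost calls was not tested. Slc7a1, the other cationic amino acid transporter, rose from 6.22 and 6.25 to 7.50 and 8.19, and Gatm, the enzyme that uses arginine for creatine synthesis, rose from 10.76 and 10.16 to 13.36 and 13.42. Slc7a7, which exports arginine, fell from 11.76 and 11.60 to 10.13 and 9.79. Of 30 measured genes of arginine, proline and polyamine metabolism, 5 were higher and 1 lower, with a median of 0.03. The fifth increase was Pycrl, an enzyme of proline synthesis (0.91), which lost its call without IL4 replicate 1 (adjusted p = 0.31), not stimulated replicate 1 (0.23) and not stimulated replicate 2 (0.16). Odc1, the first enzyme of polyamine synthesis, was not called (0.40), nor were Arg2 (-0.55) and Nos2, the nitric oxide synthase that competes for arginine (-0.12). These 3 were chosen after their values were seen.

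Surface receptors were among the strongest increases. Pdcd1lg2, the PD-1 ligand PD-L2, rose from 5.64 and 5.25 to 13.93 and 13.67 (8.36, SE 0.24), and its neighbour on chromosome 19, Cd274, the ligand PD-L1, from 13.14 and 12.48 to 15.32 and 14.75 (2.23, SE 0.30). The groups did not overlap in either ligand. Flt1, a receptor of VEGF, rose from 5.70 and 5.40 to 11.90 and 12.10. P2ry1, a receptor of ADP, rose from 7.32 and 7.23 to 10.83 and 11.04, and Tmem26, a membrane protein known as a marker of beige adipocytes, from 8.05 and 9.24 to 14.10 and 14.39. The IL4 arrays lay above the not stimulated arrays in each of these genes. Itgax, the integrin CD11c that is used to mark dendritic cells, rose from 10.09 and 9.87 to 13.75 and 14.01. Fn1, the matrix protein fibronectin, rose from 4.89 and 4.61 to 10.64 and 10.45, and Rnase2a, a ribonuclease of the eosinophil-associated family, from 4.56 and 4.21 to 11.50 and 11.89. Mgl2 (CD301b), a lectin for galactose-type sugars, gave 3.99 and 3.85 against 8.79 and 10.18. Lipn, a lipase, rose from 8.33 and 7.92 to 14.13 in both IL4 arrays.

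Of 35 measured secreted and surface markers of alternative activation, 17 were called higher (48.6%, against 1.66% of all probe sets) and 1 lower, with a median of 1.54. Both IL4 arrays lay above both not stimulated arrays in 23 of the 35, against 20.8% of all probe sets. Leaving out 1 of the 4 arrays left 14 to 16 of the 17 increases. The exceptions included Mrc1, the mannose receptor, which gave 14.62 and 14.65 against 16.81 and 16.93 (2.24, SE 0.39, adjusted p = 0.0074) and missed the threshold without not stimulated replicate 1 (adjusted p = 0.058), not stimulated replicate 2 (0.051) and IL4 replicate 2 (0.057). Clec10a (CD301a), a second lectin for galactose-type sugars, gave 7.50 and 7.65 against 8.41 and 10.45, with a difference of 1.86 at the edge of the threshold, 2.88 without IL4 replicate 1 and 0.84 without IL4 replicate 2, and of the fits without 1 array it passed only in the one without IL4 replicate 1. Ccl22, a chemokine that attracts T helper 2 and regulatory T cells, gave 4.34 and 4.81 against 7.63 and 10.03 (4.26, SE 0.60, adjusted p = 0.0017). Its IL4 arrays lay far apart, both above the not stimulated arrays, and the difference was 5.46 without IL4 replicate 1 and 3.06 without IL4 replicate 2. Ccl24, an eotaxin, rose by 1.33 and missed the threshold without not stimulated replicate 1 (adjusted p = 0.069). Stab1, a scavenger receptor, was the 1 marker that fell, from 11.11 and 11.04 to 9.28 and 9.65.

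**Figure D2:**
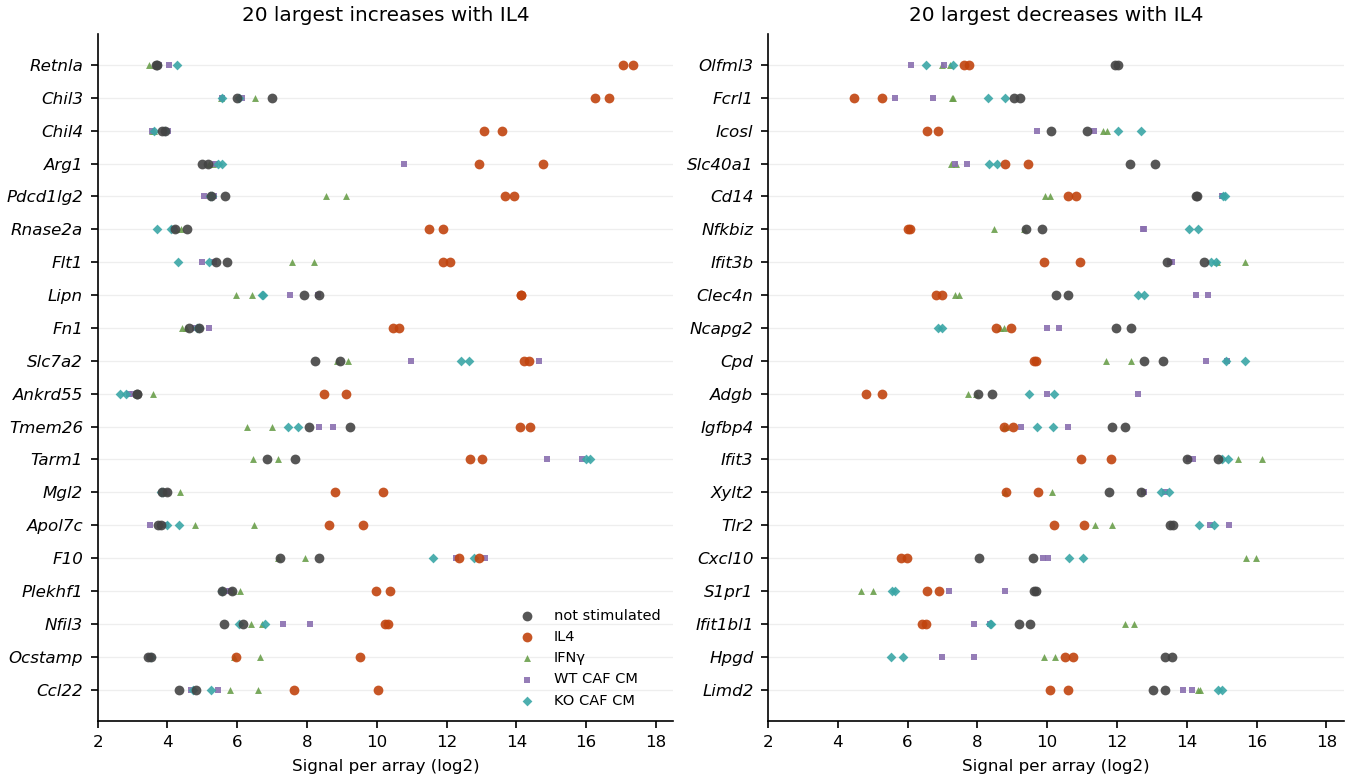
Log2 signal in each of the 10 arrays for the 20 genes with the largest called increases and the 20 with the largest called decreases, with the conditions in colour. In the left panel the 2 IL4 points lie to the right of both not stimulated points for every gene, from 17.33 and 17.06 against 3.71 and 3.67 for Retnla down to 7.63 and 10.03 against 4.34 and 4.81 for Ccl22.

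Along the route of the IL4 signal, the called increases were 3 feedback inhibitors and 1 kinase. Il4ra, the receptor chain that binds IL4, gave 12.46 and 12.47 in not stimulated and 12.08 and 11.96 in IL4 arrays (-0.45, limma, adjusted p = 0.50), and Stat6 gave 14.81 and 14.96 against 14.56 and 14.81 (-0.20, adjusted p = 0.69). Neither was called. Il13ra1, the partner chain of the type II receptor, gave 10.29 and 9.45 against 8.21 and 8.27 (-1.63, SE 0.31, adjusted p = 0.011), with a call that was lost without not stimulated replicate 1 (adjusted p = 0.11), IL4 replicate 1 (0.079) and IL4 replicate 2 (0.062). Jak2 rose from 11.32 and 11.13 to 13.06 and 13.01 (1.81), while Jak1 (0.21) and Tyk2 (0.12) were not called. The level of Jak2 was not particular to IL4, at 12.85 and 12.90 with IFNγ and 13.56 to 14.29 with CAF CM.

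Of the feedback inhibitors, Socs1, which blocks JAK kinases, rose from 4.59 and 5.30 to 8.46 and 8.88 (3.73, SE 0.56, adjusted p = 0.0027). Socs2 rose from 6 and 5.33 to 8.59 and 9.09 (3.18, SE 0.27). Cish, which limits STAT5 signaling, rose from 3.09 and 3.48 to 5.32 and 5.99 (2.37, SE 0.25). The groups did not overlap in any of the 3 genes. Socs3, the inhibitor best known from IL6 signaling, was not called (-0.11). Ptpn6, the phosphatase SHP-1 that dampens receptor signaling, gave 14.22 and 14.59 against 13.22 and 13.58 (-1.01), and did not pass (adjusted p = 0.17 each) in the fits that lacked not stimulated replicate 2 or IL4 replicate 1. Of the 31 measured genes of the receptor, JAK, STAT and SOCS group, 4 were thus higher, 2 lower and 25 not called, with a median of -0.01. The 4 increases remained called without each of the 4 arrays.

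**Figure D3:**
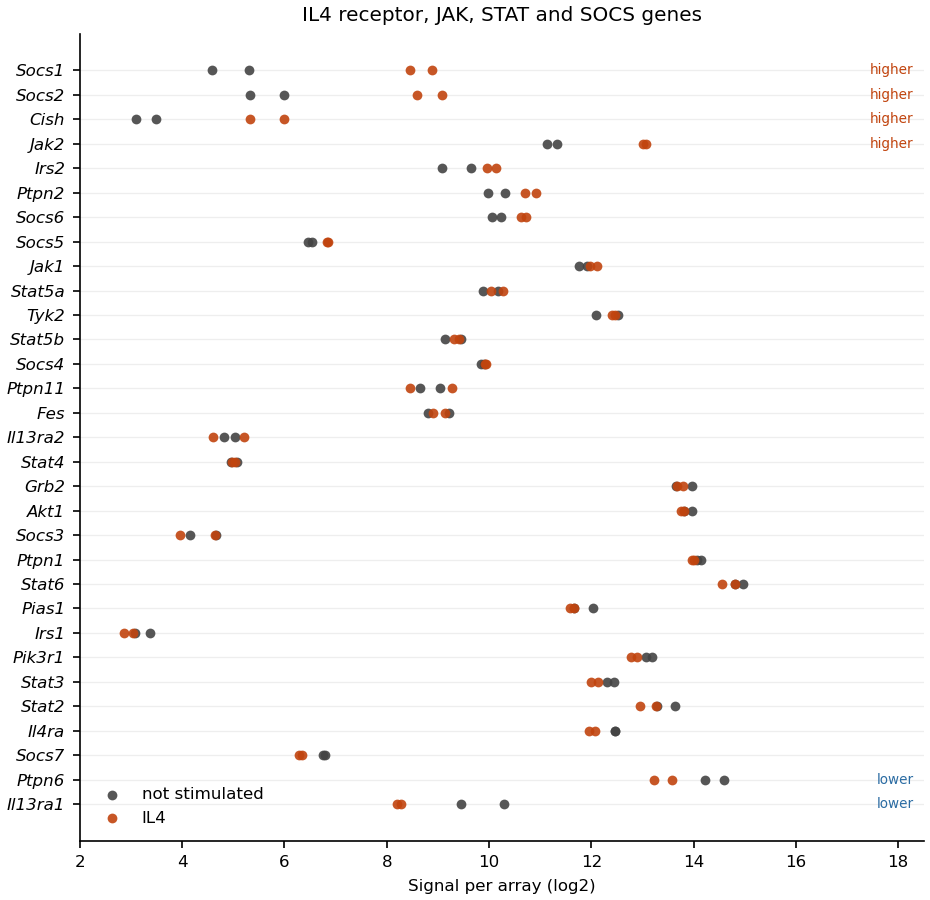
Log2 signal of the 31 measured genes of the IL4 receptor, JAK, STAT and SOCS group in the 2 not stimulated and 2 IL4 arrays, 1 row per gene, with called genes marked. Socs1, Socs2, Cish and Jak2 lie to the right with IL4, and Il4ra and Stat6 differ by -0.45 and -0.20.

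Of 60 measured transcription factors of macrophage polarization, 14 were higher (23.3%, against 1.66% of all probe sets) and 4 lower (6.67%, against 2.38%). The other 42 were not called, and the median was 0.02. Nfil3, a leucine zipper factor that IL4 induces in several immune cells, rose from 6.15 and 5.62 to 10.24 and 10.33 (4.40, SE 0.31, limma, adjusted p = 1e-05). Irf4, the interferon regulatory factor of alternative activation, rose from 4.57 and 4.14 to 8.02 and 8.98 (4.15, SE 0.32). Bhlhe40, a repressor that supports macrophage proliferation, rose from 12.50 and 12.41 to 15.65 and 15.53, and Egr2 from 12.95 and 12.63 to 15.96 and 15.77. The IL4 arrays lay above the not stimulated arrays in each of these factors. Batf3, a partner of IRF factors, rose from 4.96 and 4.85 to 7.38 and 6.93, Fosl2, an AP-1 subunit, from 8.08 and 7.96 to 9.98 and 10.03, and Ppargc1b, a coactivator of mitochondrial genes, from 7.55 and 6.69 to 9.52 and 9.14. Mitf, the factor of lysosomal and osteoclast genes, rose by 1.13. Pparg, the nuclear receptor of lipid handling, gave 12.10 and 12.20 against 13.91 and 14.25 (1.93, adjusted p = 0.0075, and 0.065 and 0.068 without not stimulated replicate 1 and IL4 replicate 2). Myc gave 10.86 and 11.72 against 13.20 and 13.56 (2.09), and missed the threshold without the same arrays (adjusted p = 0.12 and 0.088). Maf, a factor of resident macrophages and of IL10 production, fell from 12.62 and 12.67 to 9.39 and 10.54 (-2.68, SE 0.38), and Cebpd, a factor of the acute inflammatory response, from 10.10 and 9.72 to 7.72 and 8.07.

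Genes of cell fusion, by which macrophages form giant cells and osteoclasts, gave 4 increases and 0 decreases among 29 measured (limma, with 7 and 1 at an unadjusted p under 0.05). Cdh1 (E-cadherin), an adhesion molecule of epithelia, gave 4.94 and 4.92 against 6.91 and 8.13 (2.59, SE 0.33), and Itgb3, the integrin β3 of osteoclasts, rose from 7.34 and 7.23 to 9.27 and 9.83. Ocstamp, a fusion receptor of osteoclasts, gave 3.43 and 3.52 against 5.97 and 9.53, the widest gap between IL4 replicates among the 20 largest increases. Its difference was 4.28 (SE 0.78, adjusted p = 0.009). With IL4 replicate 2 left out it was 2.50, with IL4 replicate 1 left out 6.06, and it missed the threshold without not stimulated replicate 1 (adjusted p = 0.071) and not stimulated replicate 2 (0.058). Dcstamp, its partner, rose by 1.58 and lost the call without not stimulated replicate 1 (adjusted p = 0.12), not stimulated replicate 2 (0.079) and IL4 replicate 1 (0.14).

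Genes of iron transport were called in both directions. Tfrc, the transferrin receptor that imports iron, rose from 12.37 and 13.28 to 15.61 and 16.21 (3.09, SE 0.42, limma, adjusted p = 0.0013). Slc40a1, the iron exporter ferroportin, fell from 13.09 and 12.36 to 9.45 and 8.80 (-3.60, SE 0.28, adjusted p = 2e-05). Slc11a1, which moves iron out of phagosomes, gave 16.57 and 16.61 against 15.59 and 15.62 (-0.98), with an adjusted p of 0.052 without not stimulated replicate 2. Slc39a8, a carrier of zinc and iron, gave 10.24 and 10.33 against 8.68 and 8.94, with a call (adjusted p = 0.014) that was lost without each of the 4 arrays (0.053 to 0.12). The groups did not overlap in any of these genes. Hmox1, which frees iron from heme, was not called (-0.42, chosen after its values were seen). Among the 41 measured NRF2 targets and iron genes, 1 was higher and 5 lower. The detoxifying Gsta3 fell by 2.16 and the superoxide dismutase Sod1 by 1.60. Slc30a4, a zinc transporter, rose from 9.89 and 9.66 to 13.26 and 13.05, and Clcn5, an endosomal chloride exchanger, rose by 1.73.

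Genes of eicosanoids, the lipid mediators made from arachidonic acid, changed in both directions. Of 38 measured, 7 were higher (18.4%, against 1.66% of all probe sets) and 5 lower (13.2%, against 2.38%). Ptgir, the prostacyclin receptor, rose from 5.59 and 5.53 to 7.47 and 7.68, and Tbxas1, the thromboxane synthase, from 14.48 and 14.31 to 15.74 and 15.62. Ptger2, a receptor of prostaglandin E2, rose by 1.60 (adjusted p = 0.056 without not stimulated replicate 2). Hpgd, the enzyme that inactivates prostaglandins, fell from 13.38 and 13.58 to 10.74 and 10.50, and Hpgds, the prostaglandin D2 synthase of immune cells, from 15.87 and 15.95 to 14.26 and 14.51. Leaving out 1 of the 4 arrays left 3 of the 7 increases at the least, and 2 of the 5 decreases.

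Genes of energy metabolism were mostly not called. Of 59 measured genes of oxidative phosphorylation, 3 were higher and 0 lower, with a median of 0.33, and without any 1 of the 4 arrays 0 of the 59 were called by limma. At an unadjusted p under 0.05, 22 of them were higher and 0 lower by limma, and 20 and 0 by the methods' t-test. Both IL4 arrays lay above both not stimulated arrays in 37 of the 59 and below them in 1, against 20.8% and 22.7% of all probe sets. Of 39 genes of fatty acid uptake and oxidation 1 was higher, and of 36 genes of sterol and fatty acid synthesis 2 were higher and 1 lower. In glycolysis, with 37 measured and 2 called in each direction, Pfkp, a phosphofructokinase, rose from 12.28 and 12.72 to 13.80 and 14.46.

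**Figure D4:**
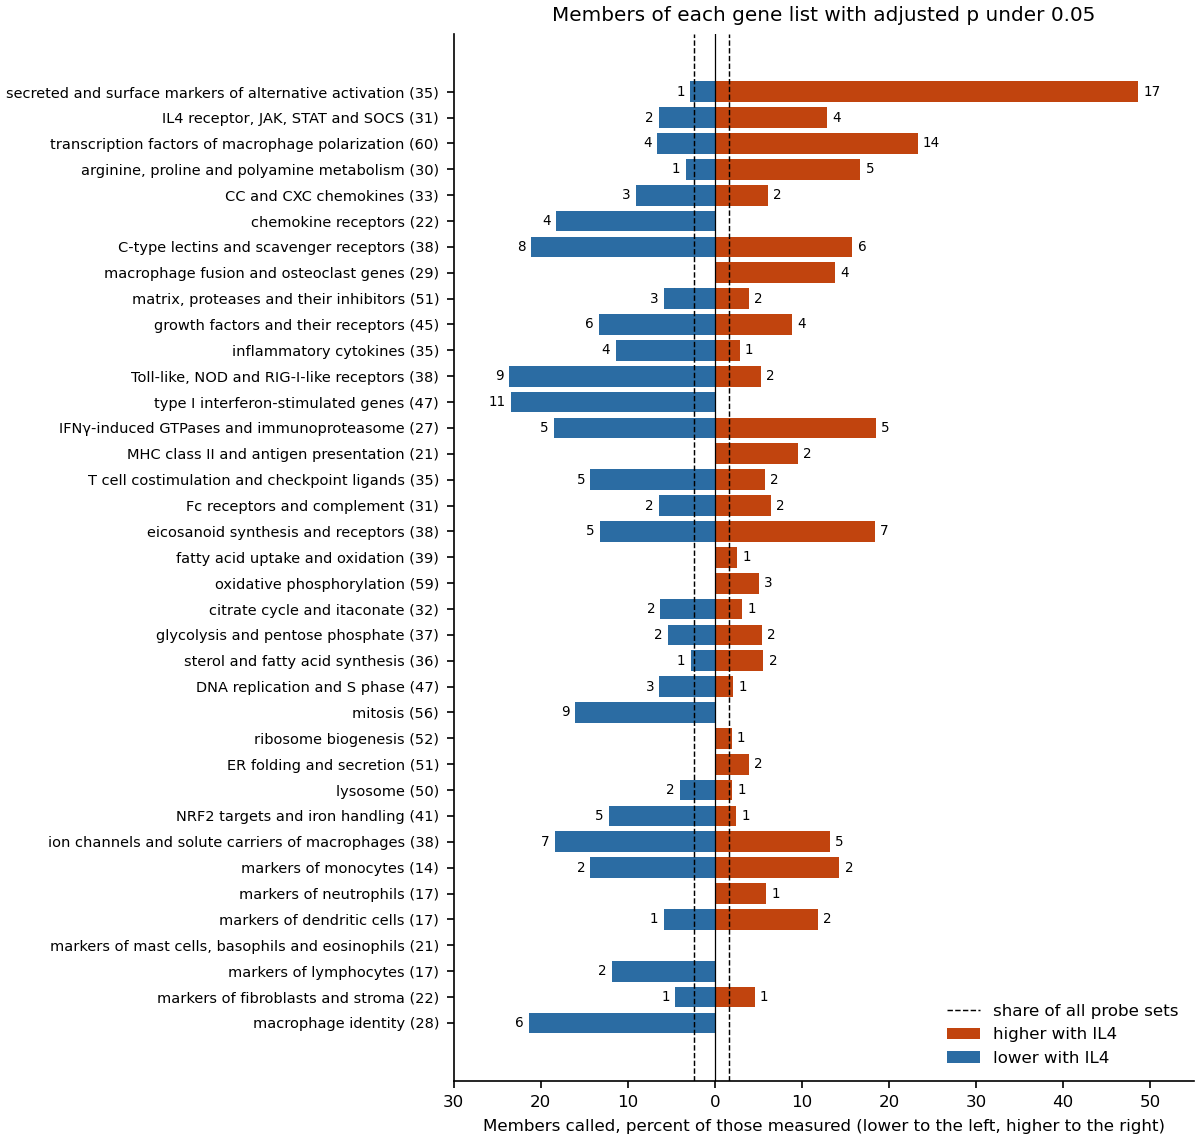
Percent of the measured genes of each list that were called higher (bars to the right) and lower (bars to the left) with IL4, with the number measured beside each list and dashed lines at the 1.66% and 2.38% of all probe sets. The markers of alternative activation have 17 of 35 members on the right, and the type I interferon-stimulated genes 11 of 47 on the left.

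Receptors and signaling molecules of innate recognition were among the decreases. Cd14, the coreceptor for bacterial lipopolysaccharide, fell from 14.27 and 14.30 to 10.60 and 10.82 (-3.58, SE 0.18, limma, adjusted p = 4e-07). Tlr2, the receptor of bacterial lipoproteins, fell from 13.62 and 13.53 to 11.06 and 10.21 (-2.94, SE 0.30), and Tlr9, the receptor of unmethylated DNA, from 9.85 and 10.32 to 8.19 and 8.36. Nlrp3, the inflammasome sensor, fell from 9.24 and 8.80 to 6.73 and 7.01, and Irak3, an inhibitor of Toll-like receptor signaling, from 14.27 and 13.99 to 12.58 and 12.70. Of 38 measured Toll-like, NOD and RIG-I-like receptors and their adaptors, 2 were higher (5.26%, against 1.66% of all probe sets) and 9 lower (23.7%, against 2.38%). Their median was -0.43. Without 1 of the 4 arrays, 6 to 7 of the 9 remained. Nfkbiz, a nuclear IκB protein needed for secondary inflammatory genes, fell from 9.39 and 9.84 to 6.08 and 6.02. Il1b gave 7.23 and 6.69 against 5.04 and 4.35 (-2.27), with an adjusted p of 0.080 without not stimulated replicate 1 and 0.071 without IL4 replicate 2.

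Members of the Clec4 cluster of lectins, some of which recognise fungal and mycobacterial sugars and lipids, were called in both directions. Clec4n (Dectin-2) fell from 10.59 and 10.25 to 7 and 6.80 (-3.52, SE 0.20), Clec4e (Mincle) from 11.03 and 10.80 to 8.54 and 8.46, and Clec4d (MCL) from 16.41 and 16.26 to 14.53 and 14.15. The groups did not overlap in any of these lectins. Clec4a3, of the same cluster, rose from 13.45 and 13.43 to 14.77 and 14.88. The whole list of 38 C-type lectins and scavenger receptors held 6 increases and 8 decreases. Pilra, an inhibitory receptor of myeloid cells, fell from 9.49 and 9.47 to 7.58 and 7.96. Icosl, the ligand of the T cell costimulator ICOS, fell from 11.13 and 10.11 to 6.88 and 6.56 (-3.90, SE 0.46). Among 35 costimulation and checkpoint ligands 2 were thus higher, both PD-1 ligands, and 5 lower.

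The decreases were headed by Olfml3, a secreted protein found in microglia, from 11.93 and 12.04 to 7.77 and 7.61 (-4.30, SE 0.31, limma, adjusted p = 1.4e-05), and by Fcrl1, a receptor best known from B cells, from 9.06 and 9.22 to 4.47 and 5.28 (-4.27). Igfbp4, a binding protein of insulin-like growth factors, fell by 3.15. Ncapg2, a condensin subunit, fell from 12.39 and 11.98 to 8.53 and 8.96. Cxcr4, the receptor of CXCL12, gave 14.74 and 14.49 against 12.84 and 12.57, and Cx3cr1, the fractalkine receptor of resident macrophages and monocytes, 6.17 and 5.97 against 3.50 and 3.95. The IL4 arrays lay below the not stimulated arrays in each of them. Of 22 chemokine receptors 0 were higher and 4 lower by limma (0 and 4 at an unadjusted p under 0.05, 0 and 2 by the methods' t-test). Tgfbr1, a receptor of TGFβ, fell by 1.45, and Mmp14, a membrane-bound collagenase, by 2.49.

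Among the type I interferon-stimulated genes, which cells switch on against viruses, 11 of the 47 measured fell (23.4%, against 2.38% of all probe sets). In this list 0 rose, and the median was -0.72. At an unadjusted p under 0.05, 29 were lower and 0 higher by limma, and 5 and 0 by the methods' t-test. Both IL4 arrays lay below both not stimulated arrays in 35 of the 47 and above them in 0, against 22.7% and 20.8% of all probe sets. Ifit3, an antiviral protein with tetratricopeptide repeats, fell from 14 and 14.89 to 10.96 and 11.83 (-3.05, SE 0.34, limma, adjusted p = 0.00038), and Ifit3b from 13.43 and 14.50 to 9.91 and 10.93, though whether the probes tell these near copies apart was not tested. Isg20, an RNA exonuclease, fell by 2.23 and missed the threshold without not stimulated replicate 2 and IL4 replicate 1 (adjusted p = 0.068 each). The list's count depended on which array was left out: 7 were lower without not stimulated replicate 1, 2 without not stimulated replicate 2, 3 without IL4 replicate 1 and 15 without IL4 replicate 2. The replicates were shifted against each other in these genes, in the same direction in both conditions. Arrays with the same replicate number share the number that opens their title. Not stimulated replicate 1 lay below replicate 2 in 45 of 47 and IL4 replicate 1 below replicate 2 in 41 of 47, against 11251 and 11731 of all 22206 probe sets, and the part of this shift in the result was not tested. Among 27 genes of the IFNγ-induced GTPases and immunoproteasome, 5 were higher and 5 lower, Psmb10, a proteasome subunit, being 1 of the increases (1.88). Cxcl10 of the same list, a chemokine that attracts CXCR3 cells, fell from 9.60 and 8.04 to 5.82 and 5.98.

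Of 56 measured genes of mitosis, 9 fell (16.1%, against 2.38% of all probe sets) and 0 rose, with a median of -0.63. At an unadjusted p under 0.05, 24 were lower and 0 higher by limma, and 11 and 0 by the methods' t-test. Both IL4 arrays lay below both not stimulated arrays in 41 of the 56 and above them in 1, against 22.7% and 20.8% of all probe sets. Kif2c, a kinesin of the centromere, fell from 6.45 and 6.41 to 4.85 and 4.86 (-1.57, SE 0.25, limma, adjusted p = 0.0037), and Nuf2, a kinetochore protein, from 7.91 and 7.99 to 6.63 and 6.77. These 2 kept their call without each array. Ube2c, the ubiquitin ligase partner that drives mitotic exit, fell by 2.27 and missed the threshold without not stimulated replicate 1 (adjusted p = 0.074) and IL4 replicate 1 (0.064). Cdk1, the kinase of mitotic entry, fell by 1.32, with an adjusted p of 0.24 without not stimulated replicate 1 and 0.13 without either IL4 array. The count was 2 without not stimulated replicate 1 or without IL4 replicate 1 and 6 without either other array. Mki67 (-0.73) and Top2a (-0.65), which mark cycling cells, did not pass (adjusted p = 0.13 and 0.11). Of 47 genes of DNA replication, 1 was higher and 3 lower.

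**Figure D5:**
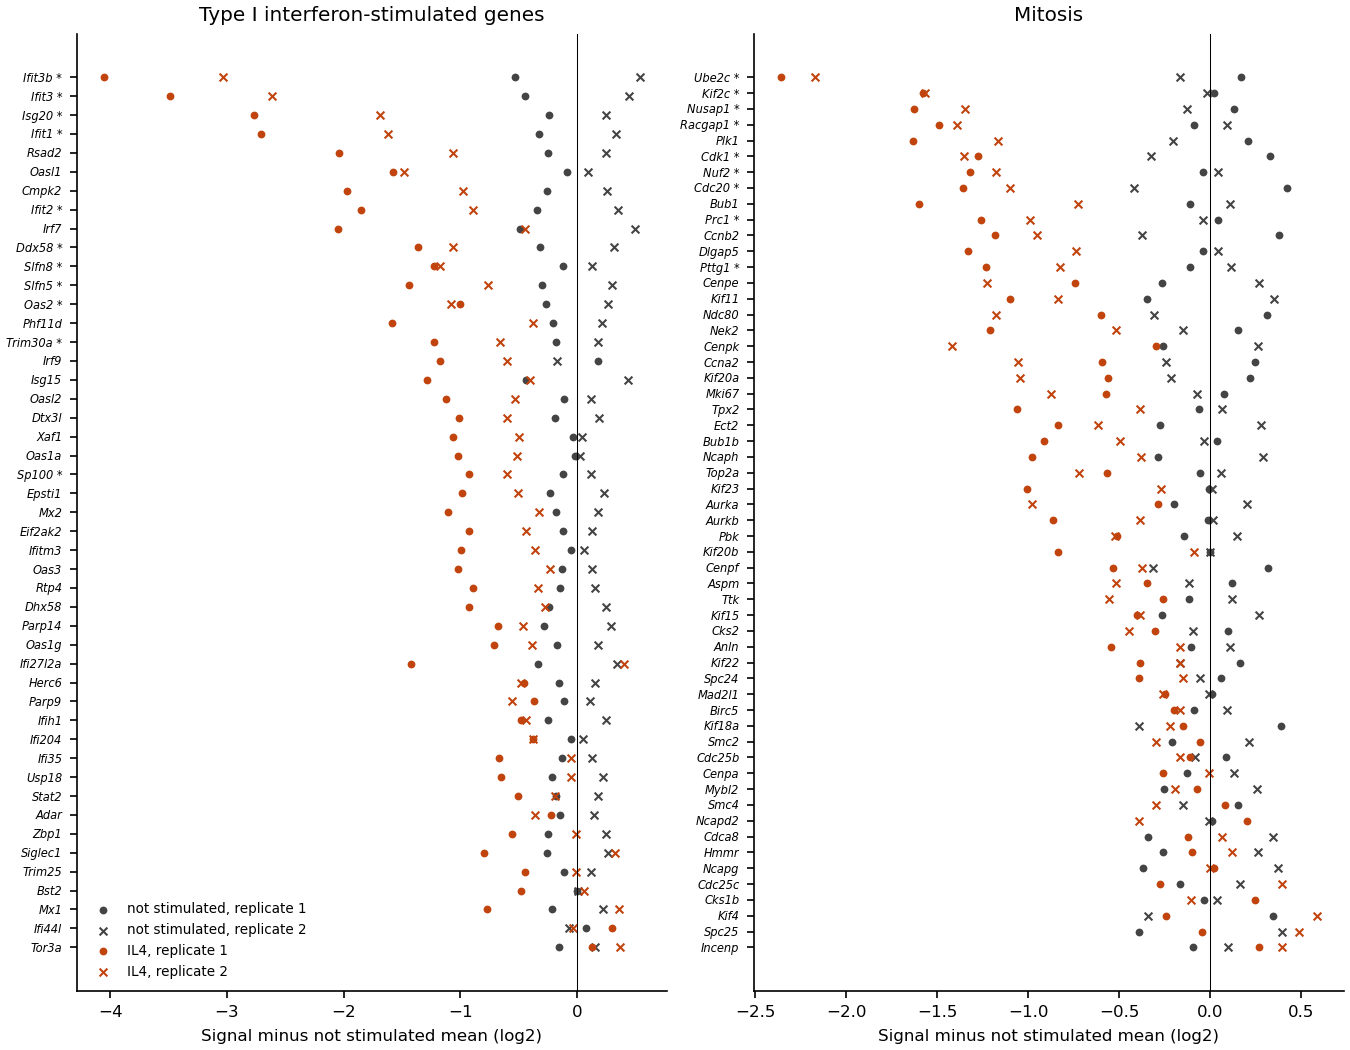
Log2 signal minus the mean of the not stimulated arrays in each of the 4 arrays, for 47 type I interferon-stimulated genes and 56 genes of mitosis, 1 row per gene, with an asterisk for genes called lower. Most IL4 points lie left of 0, with 35 of 47 and 41 of 56 genes having both IL4 arrays below both not stimulated arrays, and in the interferon panel replicate 1 lies left of replicate 2 for 45 of 47 genes in not stimulated and 41 of 47 in IL4 arrays.

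A narrower set of genes set IL4 BMDMΦs apart from all 4 other conditions. With an adjusted p under 0.05 in the same direction against not stimulated, IFNγ, WT CAF CM and KO CAF CM, 190 probe sets (0.856%) were higher and 167 (0.752%) lower. In all 190 both IL4 arrays lay above the other 8 arrays, and in 90 the gap was over 1 log2 unit. In all 167 they lay below, with such a gap in 53. The probe sets were chosen by these 4 contrasts on the same arrays, so the separation is no separate evidence. These contrasts share the IL4 arrays, so the values are given side by side. The CM came from serum-starved CAFs, so effects of serum and of CAF factors cannot be told apart in the CAF CM contrasts. For Retnla the other 8 arrays lay between 3.46 and 4.27. P2ry1 exceeded IFNγ by 5.53, WT CAF CM by 5.59 and KO CAF CM by 5.80, beside 3.66 over not stimulated, since it was at 5.08 to 5.45 in these other arrays. Egr2 (6.19, 6.13, 4.77 and 3.08), Pparg (3.61, 6.29, 6.07 and 1.93) and Tfrc (4.87, 3.41, 3.48 and 3.09) followed, in the same order of contrasts. The last of these values for Pparg is the one that missed the threshold without not stimulated replicate 1 and without IL4 replicate 2. Il31ra, a cytokine receptor chain, was at 6.84 and 7.99 with IL4 and at 2.99 to 3.44 elsewhere, and Ear10, an eosinophil-associated ribonuclease, at 8.99 and 8.83 against at most 6.02.

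Some strong increases went with raised levels under another stimulus, but no other stimulus was tested against not stimulated. Flt1 and Pdcd1lg2 are among the 190 probe sets higher than in each other condition. With IFNγ, Flt1 was at 7.58 and 8.21 and Pdcd1lg2 at 9.13 and 8.53, both between their not stimulated and IL4 levels. Socs1 was higher with IFNγ (12.60 and 12.71) than with IL4. Gatm, at 13.36 and 13.42 with IL4, gave 14.08 and 13.74 with IFNγ and 6.61 to 7.71 with CAF CM. Tarm1, an activating receptor of myeloid cells, was raised from 6.86 and 7.64 to 13 and 12.67 by IL4 and reached 14.87 to 16.10 with CAF CM, and F10, the coagulation factor X, gave 8.35 and 7.22 against 12.35 and 12.93 with IL4 and 11.62 to 13.09 with CAF CM. Arg1, also among the 190, was at 10.79 in 1 of the 2 WT CAF CM arrays and at 5.36 in the other. In the downward direction, Icosl, Nfkbiz and Nlrp3 were lower with IL4 than in each other condition, by 2.83, 2.41 and 1.79 at the nearest array. Olfml3 was at 6.09 to 7.31 with the other stimuli, and its difference from IL4 was called against WT CAF CM (adjusted p = 0.039) and not against IFNγ (0.34) or KO CAF CM (0.14).

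Markers of other cell types that such a culture could hold were counted beside these results. Of 21 markers of mast cells, basophils and eosinophils 0 were called by limma (1 higher and 0 lower at an unadjusted p under 0.05, 0 and 1 by the methods' t-test), and their summed linear signal was 2973 and 5795 in not stimulated and 2613 and 5521 in IL4 arrays. Siglecf, the eosinophil marker closest to a call, gave 9.40 and 8.63 against 10.35 and 9.87 (1.10, limma, adjusted p = 0.055). It was called with the replicate block (adjusted p = 0.014), quantile normalization (0.046), trend and robust moderation (0.047) and the filter on dim probe sets (0.049). The other alternatives that kept all 4 arrays did not call it. Ear1 and Ear2 of this list were not matched, and the ribonucleases Rnase2a and Ear10, described above, were counted elsewhere. Of 17 neutrophil markers 1 was higher, of 17 lymphocyte markers 2 were lower, and of 22 markers of fibroblasts and stroma 1 was higher and 1 lower. The 14 monocyte markers held 2 increases, Chil3 and Fn1, which are also markers of alternative activation, and 2 decreases, Ly6c2 and Treml4, both lost without not stimulated replicate 2 (adjusted p = 0.060 and 0.095) and IL4 replicate 2 (0.11 and 0.088), and Ly6c2 also without not stimulated replicate 1 (0.096). The summed signal of this list went from 18169 and 23399 to 124566 and 103165, and from 18106 and 23272 to 21729 and 24687 without Chil3. The 17 dendritic cell markers held 2 increases, Batf3 and Ccl22, and 1 decrease, Tcf4, with summed signals of 222301 and 240109 against 187929 and 235993. The 6 decreases among the genes of macrophage identity included Cd14, Maf and Cx3cr1, and the summed signal of that list went from 2743880 and 2757412 to 2377874 and 2467694. Without 1 of the 4 arrays 3 to 5 of the 6 remained. The part of these markers in the results was not tested.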

How the data were processed

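RNA of BMDMΦs (100 ng per sample) was labelled with the WT PLUS kit and hybridised to Clariom S mouse arrays, 2 per condition. The authors deposited 1 table of log2 signals per probe set, already normalized together. RMA and limma are named in the submitters' processing notes, with versions not given in the sources used here. All columns were matched to samples (0 left out). Of 22206 probe sets, 19572 had 1 gene symbol in the platform annotation, 0 several and 2634 none. The number of arrays limits the precision, and a log2 signal bounds no absolute amount of RNA.

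The deposited log2 values were fitted without further normalization with limma 3.58.1 in R 4.3.3, 1 mean per condition over all 10 arrays (5 residual and 6.43 prior degrees of freedom), with Benjamini-Hochberg adjustment over all probe sets and a threshold of 0.05. SE is limma's moderated standard error. The 37 gene lists (1193 of 1285 genes matched) were written from general knowledge, and genes shared by lists count in each. The members and lists were chosen with earlier results of these data known. Lists were described by counts and medians only. Named were the 4 marker genes, the 20 largest called differences in each direction, the 15 largest gaps to the other 8 arrays in each direction, the 6 called members with the largest difference in each list, or, in lists without a call, the 2 lowest p-values, and the receptor, JAK, STAT and SOCS genes. Adgre1, Csf1r, Spi1, Cebpd, Clec4a3, Ear10, Fosl2, Il31ra, Mitf, Mki67, Top2a, Myc, Pparg, Ppargc1b, Stab1 and Tbxas1 fell outside this rule and were chosen after their values were seen. Promoters were read from RefSeq for GRCm38.p6 and could be searched for 15691 genes. Figures and counts were made in Python 3.11.15 with pandas 2.3.3 and matplotlib 3.10.9. The fit was tested on simulated data. Alternatives were the methods' t-test on the 2 against 2 arrays, a replicate block, a fit of the 4 arrays alone, trend and robust moderation, array weights, quantile and median normalization, a filter on dim probe sets, 1 probe set per gene, a 2-fold minimum, and each of the 10 arrays left out in turn.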

Additional observations from a re-analysis of the deposited data

How the results depend on the processing

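The adjusted methods' t-test called 1 probe set higher and 1 lower, 0 of them among the 898 calls of limma. Without adjustment it called 998 higher and 1281 lower, with 669 of the 898 (74.5%) among them. With each array left out in turn, the calls ranged from 197 to 373 higher and from 205 to 540 lower, and those against each of the other 4 conditions from 121 to 188 higher and from 64 to 160 lower. Without IL4 replicate 1 the share of increases among the calls was 53.1% and without not stimulated replicate 1 51.0%, against 41.1% with all arrays. The other alternatives gave 297 to 454 increases and 402 to 660 decreases, both lowest with the 2-fold minimum. Whether the title numbers pair the arrays was not settled, since each condition has 2 arrays. Over all probe sets the deviations of IL4 and not stimulated arrays of one number correlated with r = 0.0465 (-0.049 to 0.194 over all 10 pairs of conditions). This correlation cannot exclude a pairing that affects some genes only. In the type I interferon-stimulated genes, arrays of the same number were the lower ones in 45 of 47 (not stimulated) and 41 of 47 (IL4). With these numbers as a replicate block 442 probe sets were higher and 658 lower, and 886 of the 898 calls (98.7%) were kept. Of 164 called named genes, 79 kept their call under every alternative but the adjusted t-test, which 0 of them passed, and 0 changed sign. With 2 arrays per group no single gene's replicate spread is well known.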

Other observations

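Some neighbouring genes were called in the same direction. The genes and runs in this section were chosen after their values were seen. With 19505 genes placed in RefSeq order, 19 runs of neighbours called higher held 41 of 326 genes, and 30 runs called lower held 72 of 492. Of these, 3 higher and 8 lower runs had 3 or more genes. On chromosome 13, Ankrd55 rose by 5.67, Il6st, the shared receptor chain gp130, by 1.53 and Il31ra by 4.07. Osmr, the other chain of the IL31 receptor, was not called (-0.07). On chromosome 19, Cd274 and Pdcd1lg2 were followed by Ric1, which lost its call without not stimulated replicate 2 (adjusted p = 0.094) and IL4 replicate 1 (0.087). The lower runs with 3 or more genes held the Ifit, Clec4, Pilra and Pilrb and Slfn clusters, whose members are related in sequence, but also unrelated neighbours. Of these Elmo1, an adaptor for engulfment, fell by 1.24 and Aoah, an enzyme that inactivates lipopolysaccharide, by 1.66, while Gpr141 of the same run lost its call without not stimulated replicate 1 (adjusted p = 0.21) and IL4 replicate 2 (0.16).

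F7, the coagulation factor VII, gave 7.82 and 6.06 in not stimulated and 11.11 and 9.78 in IL4 arrays (3.51, limma, adjusted p = 0.012), and F10, its neighbour, rose by 4.86. The call of F7 was lost without not stimulated replicate 2 (adjusted p = 0.11) and IL4 replicate 1 (0.13). Vwf, the von Willebrand factor that is best known from endothelium, rose from 7.92 and 8.43 to 10.14 and 10.26, and was lower in all other arrays.

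Psat1, an enzyme of serine synthesis, rose from 6.92 and 6.93 to 8.31 and 9.11, and Mthfd2, a mitochondrial folate enzyme, from 8.01 and 8.23 to 10.23 and 9.98. Psph (-0.16) and Shmt2 (0.05), of the same pathways, were not called. The survival gene Bcl2 rose from 8.72 and 9.18 to 10.49 and 11.24, and Tet2, which oxidises methylated cytosine, by 1.64.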
